A study of Mus musculus with 28 samples.

Results

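In proximal stomach of p63 knockout mouse fetuses, 122 of 18193 genes on the array stood above every wild-type tissue of the series. A gene belonged to this set when its mean in knockout proximal stomach was at least 8 on the log2 scale and exceeded the mean of each of the 7 wild-type groups by at least 1, a 2-fold difference. The set holds membrane mucins and their partners, enzymes that oxidise or reduce aldehydes, alcohols and steroids, a lipoxygenase, secreted Wnt inhibitors, parts of the peptide hormone machinery, ion channels, and keratins and calcium-binding proteins of hair. The genes were thus chosen by their measured levels in knockout proximal stomach and in all wild-type groups, so those levels are a description and carry no test.

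Total RNA was hybridised to 28 Affymetrix mouse 430 2.0 arrays, a design with several short probes near the 3' end of each transcript. Samples came from p63 knockout (p63 KO) and wild-type (WT) fetuses of the Balb/c strain. Bladder was sampled at embryonic days 15, 18 and 19 (E15, E18, E19). Both stomach regions (proximal, distal) and both intestines (small, large) were sampled at E18. Each of the 14 groups had 2 arrays, so n = 2 throughout. The labels name no treatment, and neither the allele, the dissection nor whether the 2 samples were separate animals. The p-values below therefore measure the spread between samples, which may be technical. "Knockout" below means the arrays labelled p63 KO, since the targeted gene gave no check of the labels: Trp63, which encodes p63, read 13.67 and 13.78 in knockout and 13.16 and 13.31 in wild-type proximal stomach (limma adjusted p = 0.357), and no label says where its probes lie relative to the deletion.

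The transcription factor p63 is the master regulator of stratified epithelia. The proximal stomach of the mouse, the forestomach, is lined by a stratified squamous epithelium, the distal stomach by a glandular columnar epithelium, and the bladder by urothelium. Fetuses without p63 do not form stratified epithelia, and simple columnar cells line the surfaces instead.

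Squamous genes were low in the knockout proximal stomach and columnar genes were high. Among 36 genes of a basal and squamous list that are not in the set, 27 were lower in knockout than in wild-type proximal stomach, 1 was higher, and the median difference fell by 2.25 on the log2 scale. Of 50 simple columnar genes outside the set, 27 were higher and 3 lower. Over all 13613 genes tested, 32.7% differed in this contrast and 18.1% were higher. The contrast is the one that chose the set, in which 119 of 122 genes passed the test, all higher, and nothing is read from that count.

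The median member had a level of 10.58 in knockout and 7.49 in wild-type proximal stomach, and 8.45 in the wild-type tissue where it was highest. The excess, the knockout proximal stomach mean minus the highest wild-type mean, ran from 1.01 to 5.86 with a median of 1.56. It was at least 4 for 10 genes, at least 3 for 22 and at least 2 for 44, and 55 genes lay under 1.5. In 120 genes both knockout proximal stomach arrays lay above all 14 wild-type arrays, as did 4.20% of all 18193 genes, and in 77 the gap was at least 1. The exceptions were Ltf and Krt6a, in which 1 wild-type proximal stomach array reached the knockout values.

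**Figure D1:**
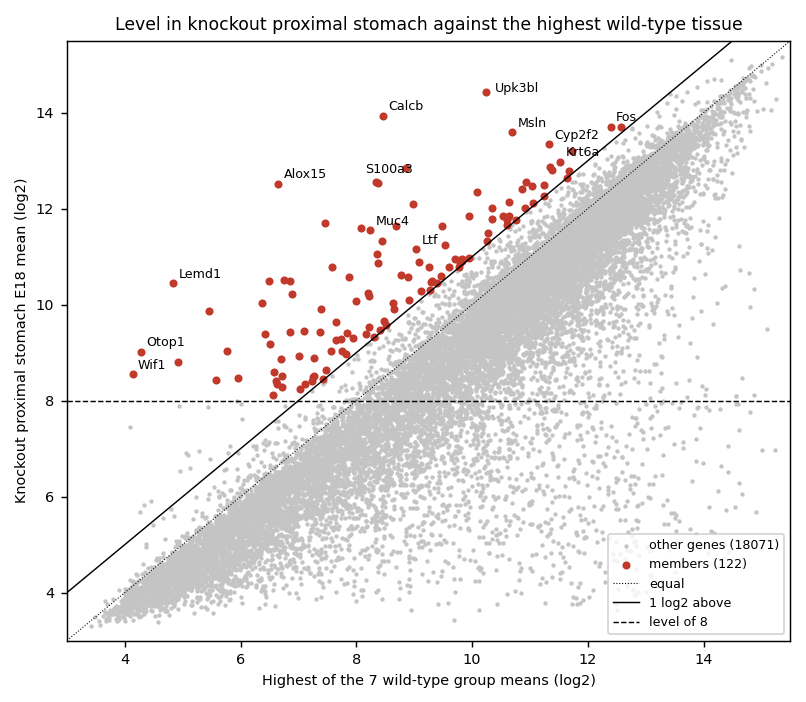
Mean log2 level in knockout proximal stomach (vertical axis) against the highest of the 7 wild-type group means (horizontal axis), 1 point for each of 18193 genes. The 122 members (red) lie above the solid line of an excess of 1 and the dashed line at a level of 8, and Alox15, Lemd1, Calcb, Otop1 and Wif1 stand farthest from the line.

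The thresholds cut a continuous range. Nbea, Il1r1 and Cidea entered with an excess of 1.01 each, while Atp10b (0.998), Slc25a35 (0.990) and Trim16 (0.988) fell just short. By level, Mnx1 at 8.11, Arc at 8.25 and Dll3 at 8.28 were the lowest members, and Cib3 at 7.98, Stap1 at 7.92 and Pkd2l1 at 7.89 stayed outside with an excess over 1.

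Apart from Fos, the members also read higher in knockout proximal stomach than in the other knockout tissues. In 121 of 122 genes both knockout proximal stomach arrays lay above all 12 arrays of the other knockout groups, as did 6.23% of all genes. The exception was Fos, which was higher in knockout bladder E19. The rule had chosen the members by high values in knockout proximal stomach, so the count of 121 is a description and tests nothing. In 104 genes the mean was at least 1 above every other knockout mean. The share of all genes that did so was not counted, and nothing is read from this number. When the same thresholds were applied to each other knockout group against the wild-type groups, 39 genes met them in bladder E19, 7 in bladder E18, 1 in bladder E15, 1 in distal stomach and 0 in both small and large intestine. A single one of these, in bladder E19, was also a member.

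For 48 members no wild-type group had both of its arrays above the median of all probe sets, and for 44 of these no other knockout group had either. Their median excess was 2.09. At the other end, 21 members were above the array median in all 7 wild-type groups, with a median excess of 1.22. The filter on low values asks for 2 arrays above the array median. Outside knockout proximal stomach, 33 members had 0 such arrays and 7 had 1, so 40 of the 122 passed through the group that chose them, and 82 passed without it.

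Alox15, the 12/15-lipoxygenase that oxygenates arachidonic and linoleic acid, had the largest excess. It read 12.30 and 12.73 in knockout proximal stomach and 5.44 and 5.16 in wild type. The highest wild-type tissue was bladder E19 at 6.65 ± 0.51 (SD, n = 2), so the excess was 5.86, and the highest other knockout mean was 6.86 in small intestine. All 26 other arrays lay together at the bottom of its range. Among 31 other genes of eicosanoid and phospholipid metabolism, 5 were higher in knockout than in wild-type proximal stomach and 11 lower. The lipoxygenases of the skin barrier went down: Aloxe3 read 7.25 and 7.32 against 12.57 and 12.07 (a difference of -5.03, SE 0.20, adjusted p = 2.5e-14), and Alox12b 9.90 and 10.81 against 13.52 and 13.36 (-3.08, SE 0.30, adjusted p = 5.2e-08).

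Mucins and secreted proteins formed the next group. Muc4, a large membrane mucin of columnar surfaces, read 11.18 and 11.91 in knockout and 4.87 and 5.18 in wild-type proximal stomach. Distal stomach was its highest wild-type tissue at 8.24 ± 0.24, an excess of 3.30. Its chromosomal neighbour Muc20, a smaller membrane mucin, read 9.40 and 9.88 against 5.03 and 6.32, with an excess of 1.98 over large intestine (0.97 when its probe sets were averaged). Muc16, the mucin known as CA125, moved less: 10.31 and 10.66 against 9.39 and 9.24, an excess of 1.17 over wild-type proximal stomach itself. Both knockout arrays lay above both wild-type proximal stomach arrays for these 3 mucins, as for 29.1% of all genes, and these values entered the rule.

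Lrrc26, a leucine-rich repeat protein that lets BK potassium channels open in secretory cells, read 12.84 and 12.85 in knockout and 6.47 and 6.72 in wild-type proximal stomach. Wild-type large intestine came next at 8.85 ± 0.72. Kcnma1, which encodes the pore of the BK channel, read 12.68 and 12.88 against 11.01 and 11.35, with an excess of 1.12 over wild-type bladder E18. Both partners of this channel were thus members.

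Smaller secreted products were seen as well. Cxcl17, a mucosal chemokine, read 10.42 and 10.58 against 6.17 and 6.57 in wild type (excess 3.65). Bpifb3, of the family of lipid-binding secreted proteins, read 9.83 and 10.60 against 5.51 and 5.59 (excess 3.33), and Obp2a, an odorant-binding lipocalin, 8.57 and 9.05 against 4.67 and 4.70 (excess 3.90). Msln, mesothelin, which binds Muc16 and marks mesothelium and some epithelia, read 13.50 and 13.70 against 10.58 and 10.80 (excess 2.91). In each of these 4 genes both knockout arrays lay above all 14 wild-type arrays.

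Outside the set, 26 of 44 secretory and mucus genes were higher in knockout than in wild-type proximal stomach and 2 were lower. The 2 with the largest rises did not exceed wild-type large intestine. Spink4, a goblet cell protease inhibitor, read 13.84 and 13.90 against 6.61 and 6.02 (a difference of 7.55, SE 0.36, adjusted p = 5.7e-13), next to a wild-type large intestine mean of 13.88. Agr2, a chaperone of mucin folding, rose by 7.01 (SE 0.22, adjusted p = 5.0e-16) and stayed under the 14.79 of wild-type large intestine.

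Enzymes that oxidise or reduce alcohols, aldehydes and steroids were a further group. Aox3, an aldehyde oxidase, read 11.67 and 11.72 in knockout and 5.75 and 5.91 in wild-type proximal stomach, with an excess of 4.24 over bladder E19. Adh7, the stomach alcohol and retinol dehydrogenase, read 12.24 and 11.93 against 6.44 and 5.34, an excess of 3.10 over the 8.99 of bladder E19. Akr1c18, which inactivates progesterone, read 9.29 and 8.78 against 4.96 and 5.43. These 3 were well apart from every wild-type array.

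Cyp2f2, a cytochrome P450 best known from airway club cells, read 13.36 and 13.32 against 11.72 and 10.93 in wild-type proximal stomach, the tissue where it was already highest (excess 2.01). Gsta3, a glutathione transferase, read 12.27 and 12.25 against 8.47 and 8.38, and was close to wild-type distal stomach at 11.23 ± 0.87 (excess 1.03). Aspa, which cleaves N-acetylaspartate, read 11.74 and 11.47 against 6.69 and 5.79 (excess 3.52 over small intestine). Of 52 other oxidation and detoxification enzymes tested, 8 were higher and 14 lower. Aox4, the aldehyde oxidase of stratified epithelium and a paralogue of Aox3, read 4.76 and 4.93 in knockout against 12.45 and 11.24 in wild type (a difference of -7.00, SE 0.46, adjusted p = 1.1e-10), the opposite direction to Aox3.

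The peptide hormone group had Calcb at its head. Calcb encodes the beta form of calcitonin gene-related peptide, and read 13.85 and 14.02 in knockout against 6.92 and 8.09 in wild-type proximal stomach. No other group reached 9, the highest wild-type mean being 8.45 ± 0.20 in small intestine. Pcsk1, the convertase that cuts prohormones, read 9.79 and 10.02 against 6.29 and 6.02 (excess 2.52). Insm1, a zinc finger factor of endocrine precursors, read 9.98 and 10.07 against 5.31 and 5.37, and wild-type large intestine followed at 8.63 ± 0.05 (excess 1.40).

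Adcyap1 (the neuropeptide PACAP, excess 1.24) and Sstr2 (a somatostatin receptor, excess 1.16) also met the rule. Among 32 other endocrine genes, 11 were higher and 0 lower. Iapp, or amylin, read 10.37 and 10.52 against 6.88 and 6.60 (3.71, SE 0.33, adjusted p = 1.4e-08), and Chga, the granule protein chromogranin A, 10.29 and 10.17 against 7.45 and 7.11 (2.95, SE 0.31, adjusted p = 2.1e-07). Both stood less than 1 above wild-type small intestine, at 9.49 and 9.89, and so stayed outside the set.

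**Figure D2:**
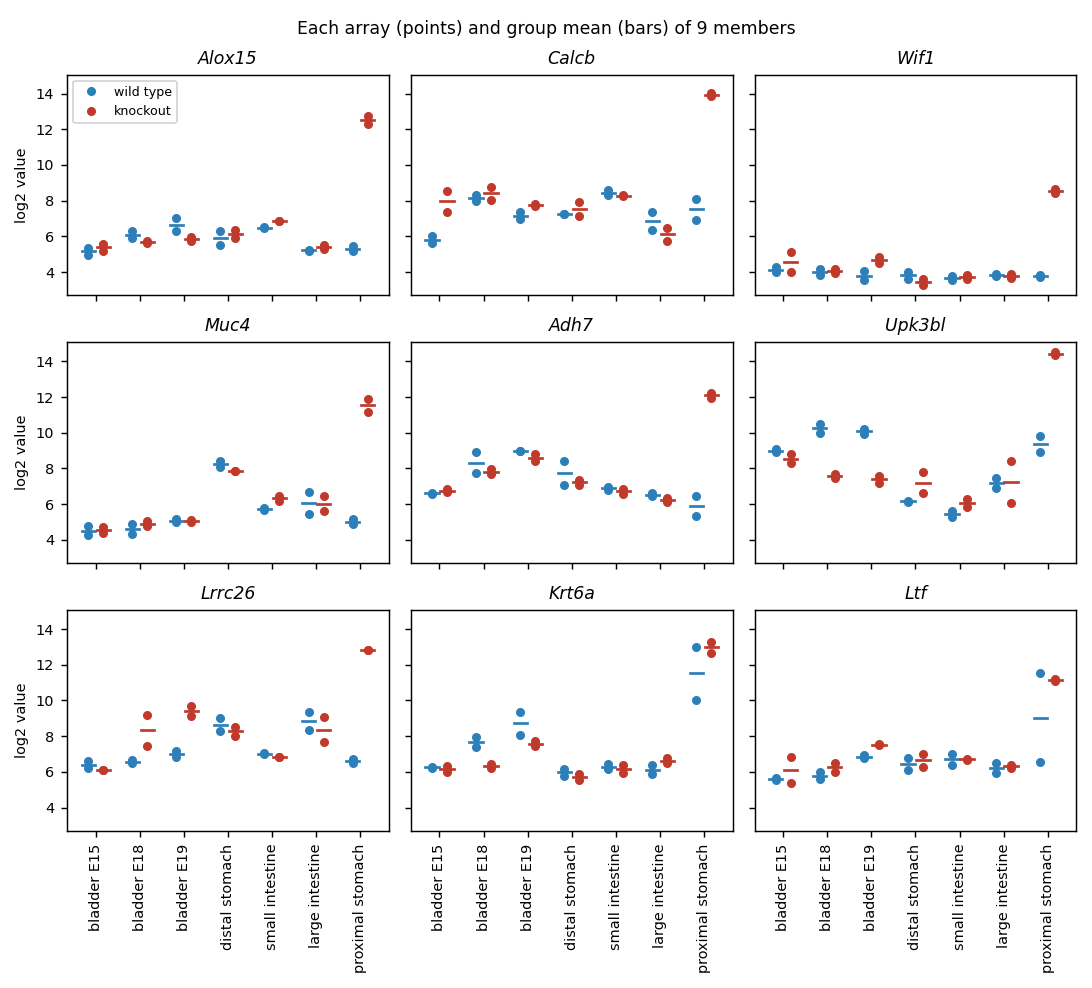
Log2 value of each array (points) and mean of its 2 arrays (bars) for 9 members in the 7 tissues and stages, wild type in blue and knockout in red. Knockout proximal stomach stands alone for Alox15, Calcb, Wif1, Muc4, Adh7, Upk3bl and Lrrc26, whereas 1 wild-type proximal stomach array of Krt6a and of Ltf reached the knockout level.

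Signalling genes included the secreted Wnt antagonists Wif1 and Notum. Wif1, which binds and blocks Wnt ligands, read 8.64 and 8.45 in knockout and 3.81 and 3.73 in wild-type proximal stomach (excess 4.41). Notum, the enzyme that strips the lipid from Wnt proteins and is itself a Wnt target, read 11.16 and 10.95 against 7.50 and 6.36, with bladder E19 next at 8.36 ± 0.21. Lrig1, a negative regulator of ErbB receptors found in gut stem cells, read 12.43 and 12.40 against 10.92 and 10.78. Of its other probe sets, 1 had an excess of 1.66 and 1 went the other way at -0.94. Inhbb, an activin subunit, read 10.25 and 10.23 against 6.59 and 6.67 (excess 2.04, or 0.54 when its probe sets were averaged).

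Other Wnt genes were split, 10 of 48 being higher in knockout proximal stomach and 13 lower. Lef1, a nuclear effector of Wnt, read 11.85 and 12.08 against 9.19 and 10.17 (2.28, SE 0.29, adjusted p = 2.1e-06). Wnt10a, a ligand of stratified epithelium, read 4.56 and 4.76 against 9.14 and 7.61 (-3.71, SE 0.38, adjusted p = 1.1e-07). Members and other genes of the pathway thus held both directions.

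The interleukin-1 receptors Il1r1, which signals, and Il1r2, a decoy, are neighbours on chromosome 1 and both met the rule narrowly. Il1r1 read 12.51 and 12.78 against 10.67 and 11.18, an excess of 1.01 over wild-type bladder E18. Il1r2 read 10.23 and 11.64 against 9.45 and 10.15, so the lower knockout array lay only 0.07 above the highest wild-type array. Fgf14, an intracellular FGF-like protein that binds sodium channels, met the rule by its brightest probe set, but its other 2 probe sets past the filter had an excess of -2.29 and -2.30.

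Transcription factors were few. Prox1, a homeobox factor of endoderm and lymphatic vessels, read 11.22 and 11.27 against 6.99 and 7.35, with wild-type large intestine next at 9.54 ± 0.08. Mnx1, a homeobox factor of pancreas and motor neurons, read 7.96 and 8.25 against 6.39 and 6.73. Zbtb7c, a zinc finger repressor, read 10.82 and 11.11 against 9.90 and 9.98. Of 58 other endoderm and epithelial factors, 15 were higher and 7 lower. Foxa2, a pioneer factor of foregut endoderm, read 10.57 and 10.81 against 5.60 and 6.25 (4.77, SE 0.38, adjusted p = 2.9e-09) and lay within 1 of wild-type distal stomach at 9.99.

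Channels and carriers gave Car4, a membrane carbonic anhydrase, at 9.29 and 9.25 against 5.10 and 4.88, and Gabrp, the pi subunit of GABA-A receptors found in epithelia, at 10.65 and 10.39 against 6.02 and 6.83. Otop1, a proton channel of sour taste cells, read 8.58 and 9.45 against 4.21 and 4.35, an excess of 4.74. Among 59 other ion and water transport genes, 14 were higher and 13 lower. Cldn10, a tight junction claudin that forms ion pores, was the simple columnar gene of the set and read 12.83 and 12.78 against 10.46 and 10.11.

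The urothelial list held Cyp2f2, described above, and Upk3bl, a uroplakin-like protein. Upk3bl read 14.36 and 14.50 against 8.92 and 9.79 in wild-type proximal stomach and 10.50 and 9.98 in wild-type bladder E18, an excess of 4.20. Of 15 other genes of the urothelial list, 11 were higher in knockout proximal stomach and 0 lower. Upk2 read 14.04 and 14.06 against 8.23 and 9.24 (5.31, SE 0.30, adjusted p = 1.1e-11), at the level of wild-type bladder E18 (13.98). Upk1a rose by 5.42 (SE 0.25, adjusted p = 3.4e-13) and stayed under its bladder level of 12.90.

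Defence genes were mixed. Cd177, a surface glycoprotein of neutrophils and gut epithelium, read 11.43 and 11.57 against 5.14 and 5.03, close to wild-type distal stomach at 10.28 ± 0.47. Its neighbour Ceacam10, a secreted CEA-type protein, read 9.22 and 9.45 against a wild-type mean of 5.84 ± 0.23 (SD, n = 2). Among 44 other mucosal defence genes, 12 were higher and 12 lower. Slpi, a protease inhibitor abundant in squamous epithelium, read 7.73 and 7.79 against 14.79 and 14.80 (-7.04, SE 0.48, adjusted p = 2.6e-10).

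Ltf, the iron-binding protein lactoferrin, read 11.11 and 11.19 in knockout proximal stomach. The wild-type arrays read 6.55 and 11.52, so their mean of 9.04 carried an SD of 3.51, and the groups overlapped. Both S100a8 (9.19 and 10.22 against a wild-type mean of 9.28) and S100a9 (10.43 and 11.47 against 13.32 and 12.92), granule proteins of neutrophils and of stressed epithelium, were present in both genotypes. The neutrophil genes Mpo and Elane stayed at or under 7.03 and 4.39 in knockout proximal stomach. Against its higher wild-type array, Ltf would not have met the rule.

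Keratins and matrix proteins of hair and stressed skin were members beside the columnar genes. Krt31 and Krt34, acidic hair keratins that lie side by side on chromosome 11, read 9.13 and 9.67 against 6.24 and 6.60, and 10.27 and 10.69 against 8.41 and 10.17. Tchh, trichohyalin of the inner root sheath, read 10.57 and 11.15 against 8.23 and 8.54. S100a3, a calcium-binding protein of the hair cuticle, read 12.48 and 12.65 against 8.08 and 8.28, with an excess of 4.22 over wild-type bladder E18. Krt6a, the keratin of activated keratinocytes, read 12.69 and 13.28, and its wild-type arrays read 10.04 and 12.99, which overlap. Outside the set, the 27 squamous genes that were lower included Hrnr at 4.48 and 3.77 against 13.64 and 13.49 (-9.44, SE 0.56, adjusted p = 2.1e-11).

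**Figure D3:**
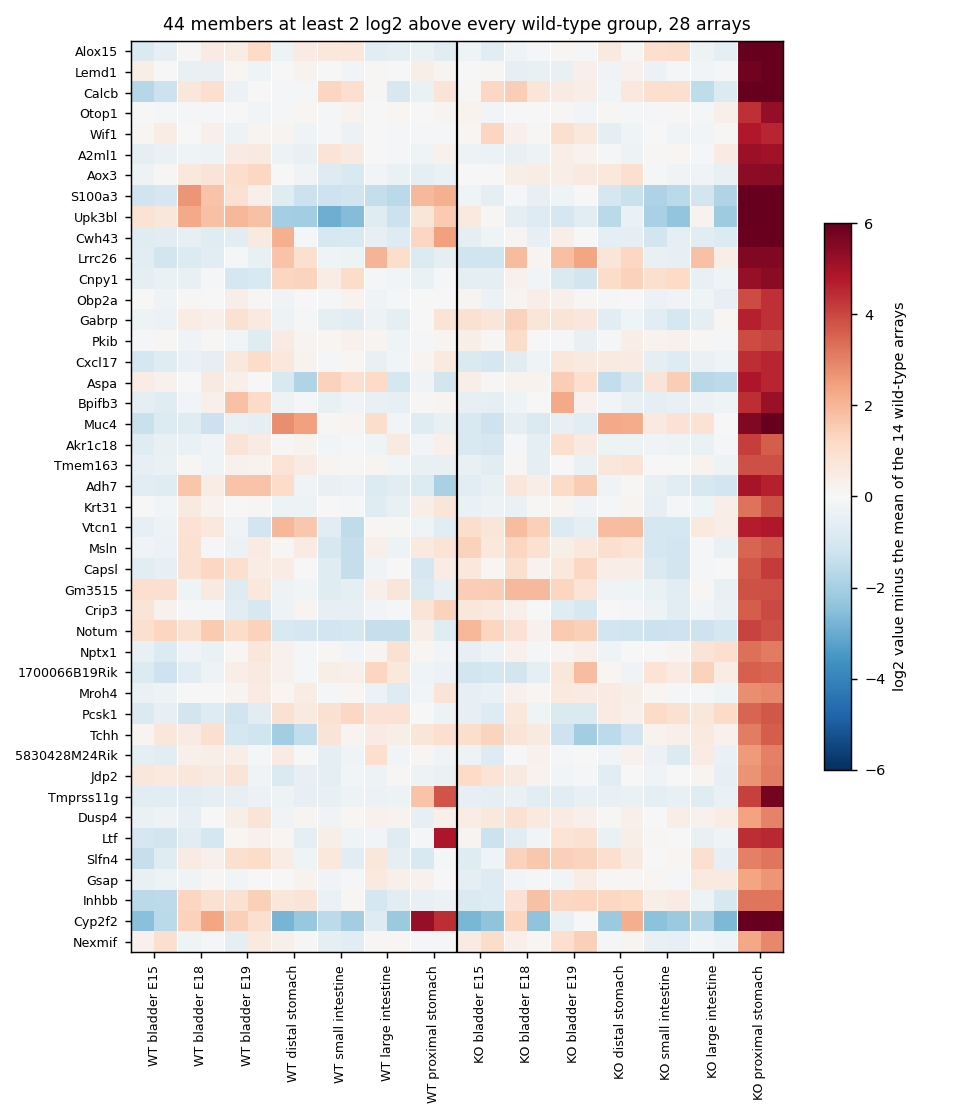
Log2 value minus the mean of the 14 wild-type arrays for the 44 members with an excess of at least 2, in rows ordered by excess, over the 28 arrays in columns, with the colour scale ending at 6 in both directions. The 2 knockout proximal stomach columns are the darkest red in each row apart from Ltf, whose second wild-type proximal stomach array is as red.

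A few members differed between the 2 arrays of a group. The wild-type proximal stomach arrays were over 1 apart for 15 members, led by Ltf (4.97 apart), Krt6a (2.95) and Gprc5a (2.59), a retinoic acid-induced receptor, and knockout arrays for 2, Il1r2 and the serine protease gene Tmprss11g (SD 1.16). The second knockout array was the higher for 96 of 122 members, by a median of 0.20, whereas over all genes the median difference between these arrays was -0.03. The ratio of the 3' to the 5' actin probe sets, a measure of RNA quality, was 0.48 and 0.61 (log2) in knockout proximal stomach and 0.97 and 0.88 in wild type. Its part in the levels was not tested.

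Markers of other organs and cell types were read as whole lists. The mean level of 9 liver genes was 5.86 and 5.98, against 6.57 and 6.67 in wild-type proximal stomach, and 11 pancreas genes gave 6.09 and 6.24 against 5.91 and 6.03. The mean of the 14 lung and airway genes outside the set was 6.38 and 6.44 against 7.50 and 7.49. Among them Sftpc read 6.53 and 6.60 and Scgb1a1 4.09 and 3.89, the last against 11.06 and 10.61 in wild type. The mean of the 7 mesothelial genes outside the set was 10.08 and 9.92 against 9.73 and 10.06, and their median difference was -0.44. Of these 7, Upk3b and Krt19, both also urothelial or columnar genes, were higher and 0 were lower, while Wt1 read 9.48 and 9.09 against 9.60 and 9.83. The mean of 18 immune genes was 7.83 and 7.89 against 7.70 and 8.16, and the part of these cells in the levels was not tested. Skeletal muscle genes (11) averaged 7.16 and 6.89 against 8.82 and 7.88, with 4 lower, 0 higher and a median difference of -1.10. Endothelial genes (8) averaged 9.78 and 9.39 against 9.42 and 8.93, with 1 higher and 0 lower. Median differences were -0.35 for smooth muscle, -0.14 for fibroblast and matrix, and 0.31 for nerve and glia. Differences in tissue make-up were not tested. In bulk tissue, fewer cells of a type and less RNA per cell cannot be told apart.

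For 94 of 122 members and 15630 of all 18193 genes, the highest wild-type group lay outside the proximal stomach. Shares of all genes in each single group are not given here, so the counts by tissue describe the members alone. The highest wild-type group was proximal stomach for 28, bladder E19 for 24, large intestine for 22, distal stomach for 20, bladder E18 for 13, small intestine for 10 and bladder E15 for 5. Of the 94 members with their highest wild-type group outside the proximal stomach, 60 (63.8%) had their highest other knockout group in the same tissue and stage, next to 74.2% of all genes, and 76 (80.9%) in the same organ, next to 82.4%. The same tissue was highest in both genotypes for 18 of the 20 members of distal stomach, among them Muc4, Cd177 and Mlph.

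Comparisons among the other knockout groups use arrays that the rule did not read, and these were tested. Distal stomach was set against the mean of small and large intestine, all knockout E18. Of 122 members, 32 were higher in distal stomach and 9 lower, against 26.0% of all genes called (12.6% higher and 13.3% lower), and the median difference was 0.30 for members and 0.00 for all genes. Over the 82 members and 13565 genes that passed the filter without the knockout proximal stomach arrays, 26 members were higher and 6 lower, and 26.0% of genes were called. These counts describe the list and test nothing about it.

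Adam28, a disintegrin metalloprotease, read 10.82 and 10.83 in knockout distal stomach and between 5.71 and 6.80 on the 4 intestinal arrays (4.51, SE 0.22, adjusted p = 1.8e-12). Eya2, a transcriptional co-activator, read 7.97 and 7.69 there and 4.82 to 5.04 in intestine (2.88, SE 0.23, adjusted p = 3.1e-09). Muc4 was higher in distal stomach by 1.68 (SE 0.30, adjusted p = 2.0e-04). The difference for Vtcn1, an inhibitory B7 family ligand, was 2.16 (SE 0.25, adjusted p = 7.2e-07). In the other direction went Marveld3, a tight junction protein, at 7.74 and 7.95 against 9.59 to 10.32 (-2.19, SE 0.21, adjusted p = 3.9e-08), and Tchh (-1.70, SE 0.26, adjusted p = 3.0e-05).

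Knockout bladder E18 was then set against the mean of the other 3 knockout E18 gut tissues. Here 40 members were higher in bladder and 30 lower, where 55.5% of all genes were called (24.4% higher and 31.1% lower). The share of members called, 57.4%, was near that of all genes. Over the 82 members that passed the filter without knockout proximal stomach, 35 were higher and 21 lower (55.6% of genes called). Cldn10 read 10.90 and 11.72 in bladder and at most 8.26 in gut (4.26, SE 0.41, adjusted p = 2.9e-08). Capn5, a calpain protease, read 11.95 and 11.89 against 8.64 to 10.37 (2.30, SE 0.18, adjusted p = 1.0e-09). Insm1 was low in bladder, at 5.03 and 4.61 in bladder and 7.66 to 8.89 elsewhere (-3.55, SE 0.18, adjusted p = 2.1e-12).

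Cd177 (-3.14, SE 0.24, adjusted p = 7.0e-10), Mnx1 (-2.07, SE 0.25, adjusted p = 6.2e-07), Ceacam10 (-1.96, SE 0.34, adjusted p = 6.0e-05) and Muc4 (-1.85, SE 0.28, adjusted p = 1.4e-05) were lower in knockout bladder too.

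Within knockout bladder, 31 members were higher at E18 than at E15 and 5 lower, against 46.7% of all genes called (15.7% higher and 31.0% lower). Over the 82 members, 27 were higher and 4 lower. Cldn10 went from 7.84 and 7.99 to 10.90 and 11.72 (3.39, SE 0.51, adjusted p = 2.5e-05) and Mlph, melanophilin, which links granules to myosin, from 5.27 and 5.18 to 8.18 and 7.82 (2.77, SE 0.32, adjusted p = 1.9e-06). Lgi2, a secreted leucine-rich repeat protein, fell by 1.96 (SE 0.27, adjusted p = 1.2e-05). The knockout E15 arrays had the highest 3' to 5' actin ratios of the series (1.33 and 1.12, log2), next to 0.51 and 0.51 at E18. With that ratio in the model 2 members and 221 genes stayed called, Cldn10 among the former. Stage and ratio differ together between these groups, and the slope of the ratio comes only from differences within groups. Stage and RNA quality therefore cannot be told apart here. The part of RNA quality in these calls was not tested.

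From E18 to E19, 21 members were higher and 28 lower in knockout bladder, where 60.5% of all genes were called (28.3% higher and 32.2% lower). Over the 82 members, 12 were higher and 22 lower. The E19 arrays had lower medians than the rest (at most 7.53 against at least 7.73). With each array centred on its median the split was 38 higher and 17 lower. Centring moves all genes of an array alike, so nothing about the members in particular is read from that split. Prox1 fell from 9.29 and 8.42 to 4.71 and 4.24 (-4.38, SE 0.28, adjusted p = 4.1e-11), and Dner, a Notch ligand of neurons, from 9.04 and 7.27 to 5.06 and 5.93 (-2.66, SE 0.47, adjusted p = 5.7e-05). Cxcl17 rose from 5.34 and 5.71 to 6.69 and 6.51 (1.08, SE 0.23, adjusted p = 4.1e-04). All of these Cxcl17 values lay under the lowest array median (7.48), so nothing is read from that rise. Fos rose by 1.89 (SE 0.41, adjusted p = 5.3e-04) to 13.84 and 13.85.

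**Figure D4:**
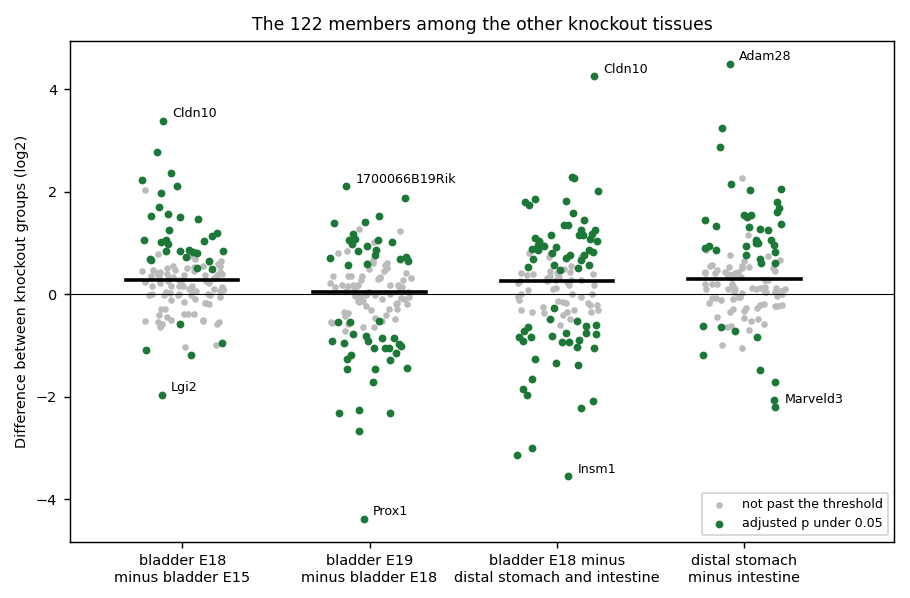
Difference between knockout groups on the log2 scale (vertical axis) for the 122 members in 4 comparisons that leave out proximal stomach, with green points at an adjusted p under 0.05 and bars at the median. Medians lie between 0.04 and 0.30, and Cldn10, Adam28, Prox1, Insm1, Marveld3 and Lgi2 are named.

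Whether the loss of p63 moved the same genes in other organs was read from knockout minus wild type in each. The wild-type arrays entered the choice of members as an upper limit, so the counts are given beside those of all genes. Of the 122 members, 40 passed the filter only with the knockout proximal stomach arrays. These were low in the organs compared here and in bladder below, which limits the calls that could be made. In distal stomach, small intestine and large intestine, limma called 0 of 122 members, against 0%, 0% and 0.0882% of all genes (0.0588% higher and 0.0294% lower in large intestine). At an unadjusted p under 0.05 there were 9, 8 and 5 members (7.38%, 6.56% and 4.1%), next to 3.88%, 4.6% and 4.89% of all genes. Median differences were 0.04, 0.05 and -0.05, next to 2.64 in proximal stomach. Leaving out the second wild-type array gave 2 lower members in distal stomach, with 1.85% of all genes called, and 3 lower in large intestine, with 0.889%.

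Bladder had more calls. At E15, 10 members were higher and 0 lower in knockout, with 7.04% of all genes called (4.55% higher and 2.49% lower). At E18, 6 were higher and 3 lower, with 3.24% of all genes called (1.56% and 1.67%). At E19, 12 were higher and 6 lower, with 20% of all genes called (13.5% and 6.50%). The shares of members called were 8.2% at E15, 7.38% at E18 and 14.8% at E19. They were thus near the share of all genes at E15, above it at E18 and under it at E19, and the E18 share rests on 9 members. When members were chosen without the bladder wild-type groups, 191 genes met the rule, and 18, 10 and 33 of them were called at the 3 stages. The E15 and E18 counts fell when some single arrays were left out. With the actin ratio in the model the E15 count fell to 0. Shares of all genes in these refits are not given here, so the falls are not read as particular to the members.

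Capn5 was higher at E15, at 12.09 and 11.93 in knockout against 10.57 and 10.63 in wild type (1.41, SE 0.22, adjusted p = 6.8e-04). Calcb was higher there too, at 7.37 and 8.56 against a wild-type mean of 5.81 ± 0.27 (2.16, SE 0.41, adjusted p = 0.0032), a call lost without the first wild-type array. Lrrc26 was higher at E19, at 9.11 and 9.67 against 7.18 and 6.84 (2.38, SE 0.45, adjusted p = 9.6e-04). These 3 had the direction seen in proximal stomach, at a smaller size.

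S100a3, Upk3bl and Adam28 had the opposite direction. In bladder E18 S100a3 read 6.04 and 5.63 in knockout against 8.81 and 7.87 in wild type (-2.50, SE 0.30, adjusted p = 3.2e-05). Upk3bl read 7.66 and 7.46 against 10.50 and 9.98 (-2.68, SE 0.50, adjusted p = 0.0031), a call lost without the first wild-type array, and at E19 7.19 and 7.57 against 10.22 and 9.95 (-2.71, SE 0.50, adjusted p = 7.1e-04). Adam28 was lower at E19, at 7.07 and 7.12 against 8.39 and 8.47 (-1.33, SE 0.26, adjusted p = 0.0011). The genotype difference itself was compared between bladder (mean of 3 stages) and gut (mean of 3 tissues), a contrast chosen after the data were seen. It was higher in bladder for 11 members and lower for 6, where 12.6% of all genes were called (8.35% higher and 4.26% lower). The share of members called, 13.9%, was near that of all genes. The gut tissues were all E18, so organ and stage cannot be told apart in this contrast.

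**Figure D5:**
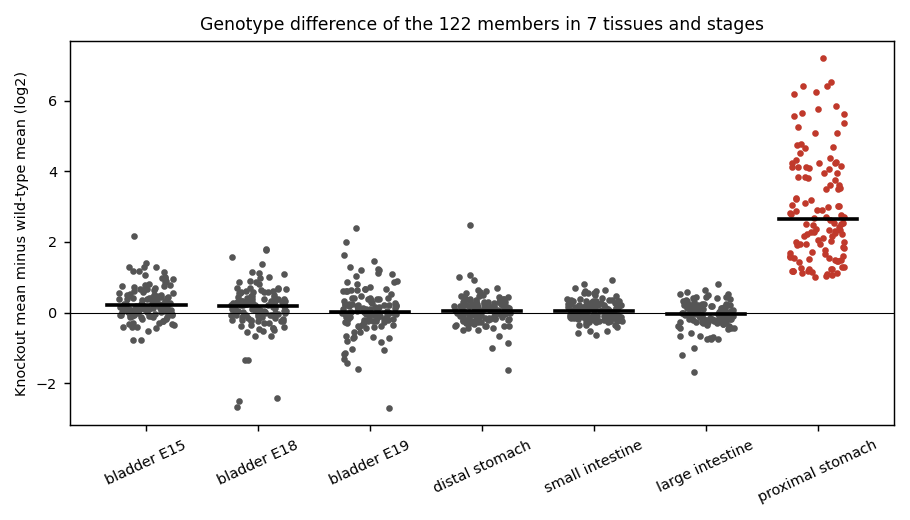
Knockout minus wild-type mean on the log2 scale (vertical axis) for each of the 122 members in the 7 tissues and stages, with bars at the median. The medians lie between -0.05 and 0.22 outside the proximal stomach and at 2.64 in it, where the rule fixed a difference of at least 1.

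Some members are neighbours on a chromosome. How often neighbours occur in other sets of this size was not counted, so the pairs are a description. With no protein-coding gene between them in the RefSeq order lay Il1r2 and Il1r1, Krt34 and Krt31, Fos and Jdp2, Mroh4 and Arc, Muc4 and Muc20, Agfg2 and Nyap1, and Cd177 and Ceacam10. Fos and Arc are immediate early genes, and Jdp2 encodes a partner of the AP-1 factors. Fos read 13.68 and 13.74 against 11.21 and 11.77, and Jdp2 12.14 and 12.54 against 9.16 and 9.09.

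Promoter windows from RefSeq (mouse build GRCm38.p6), 250 bases before to 50 after a start, were at hand for 86 members as 108 windows and for 14367 genes as 18006 windows. The letters TATAAA, the TATA box that positions transcription starts in many tissue-specific genes, occurred on either strand in 18.5% of member windows and 9.75% of all windows. On the gene's own strand and 20 to 40 bases before the start they occurred in 7 member windows (6.48%) and in 2.26% of all. The median number of CG pairs was 9 in member windows and 16 in all. Motifs of endoderm factors were counted on either strand. The forkhead motif TGTTTAC occurred in 5.56% of member windows and 2.97% of all. The HNF4 motif CAAAGTC occurred in 7.41% and 4.23%. The HNF1 motif, written GTTAATN, occurred in 8.33% and 5.25%. The GATA motif AGATAAG occurred in 0% and 2.36%. No motif contains another, and these shares are a description of letters, not of binding.

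The 150 bases before the start are shown for 4 members with a TATA box at such a distance. They are A2ml1, which has the largest excess among them, the membrane mucin Muc4, and the adjacent hair keratins Krt31 and Krt34. TATAAA stands in capitals and begins 30, 36, 29 and 31 bases before the start. The sequences run 5' to 3' and lie in GRCm38.p6 at chr6:128581607-128581756 (minus strand), chr16:32735736-32735885 (plus), chr11:100050552-100050701 (minus) and chr11:100041555-100041704 (minus).
A2ml1: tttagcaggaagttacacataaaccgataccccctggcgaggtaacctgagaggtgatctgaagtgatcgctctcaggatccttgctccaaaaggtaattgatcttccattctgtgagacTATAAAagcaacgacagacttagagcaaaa
Muc4: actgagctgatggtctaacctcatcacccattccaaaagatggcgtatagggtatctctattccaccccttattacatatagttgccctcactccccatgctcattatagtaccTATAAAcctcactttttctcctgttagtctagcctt
Krt31: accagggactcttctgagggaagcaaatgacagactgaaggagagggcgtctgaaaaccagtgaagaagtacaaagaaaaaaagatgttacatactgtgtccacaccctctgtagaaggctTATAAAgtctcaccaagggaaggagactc
Krt34: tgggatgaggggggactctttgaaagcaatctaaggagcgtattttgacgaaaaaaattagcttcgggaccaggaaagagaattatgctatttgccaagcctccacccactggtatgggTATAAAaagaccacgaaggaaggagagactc
A2ml1, a secreted protease inhibitor, read 9.93 and 9.80 in knockout proximal stomach against 4.52 and 5.02 in wild type. The 4 genes share these letters and a high level in knockout proximal stomach, and they differ in their nearest wild-type tissue, which was small intestine for A2ml1, distal stomach for Muc4 and proximal stomach for both keratins.

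The remaining members of large excess have less common roles. Lemd1, a LEM domain protein of testis, read 10.35 and 10.55 against 4.92 and 4.74 and was under 5 in every wild-type group (excess 5.62). Cwh43, of glycolipid anchor remodelling, read 12.44 and 12.63 against 7.79 and 8.97. Cnpy1, a canopy family protein of FGF signalling, read 10.39 and 10.59 against 4.77 and 5.05, and both of its further probe sets past the filter agreed, with an excess of 4.46 and 4.08. Pkib, an inhibitor of protein kinase A, read 9.98 and 10.11 against 5.97 and 6.21.

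Across members, 53 further probe sets in 36 genes passed the filter, and 50 had an excess above 0 and 31 of at least 1. Fgf14 and Lrig1 were those that disagreed. In addition, 37 of 10092 probe sets with no or several gene symbols met the thresholds and are not named.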

How the data were processed

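The log2 values were used as deposited, 1 per probe set and array. Per the submitters' processing notes, the authors used Affymetrix Expression Console and Partek (no version given). How background was corrected and arrays were normalized is not given in the sources used here. Depth has no meaning for arrays, whose number limits the precision.

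Of 45101 probe sets, 64 controls were left out, and 34945 of the rest carried 1 gene symbol in the platform annotation, 932 several and 9160 none. Each gene took the value of its brightest probe set (mean of 28 arrays), and 120 of 122 member symbols equalled those of RefSeq (GRCm38.p6). Tests used limma 3.58.1 in R 4.3.3 on all 28 arrays, with a mean per group, a variance trend, and 14 residual and 6.19 prior degrees of freedom. The 13613 genes tested had a probe set above the array's median on at least 2 arrays, and all 122 members passed, 40 of them only with the knockout proximal stomach arrays. P-values are two-sided, adjusted by Benjamini-Hochberg over these genes, and a call is an adjusted p under 0.05. An exact permutation of 2 against 2 arrays cannot go below 0.333, so calls rest on the spread pooled over groups. The code was tested on simulated data.

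Members and gene lists were chosen with earlier results of these data known. Members named are the 20 of largest excess, up to 6 per function list, the 5 largest calls each way in each tested contrast, and the 3 on each side of each threshold, passing over genes without a full name. Others, among them Krt31, Krt34, Krt6a, Jdp2, Arc, Mroh4, Agfg2, Lrig1, Adcyap1, Sstr2, Gprc5a and Tmprss11g, and all genes outside the set, were named after their values were seen. Python 3.11.15, pandas 2.3.3 and matplotlib 3.10.9 served for counts and figures. Alternatives were other thresholds, probe set averaging, median centring, filters, array weights, the actin ratio as a covariate, the replicate number as a block, fits on the compared groups alone, and leaving out each array.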

Additional observations from a re-analysis of the deposited data

Results flagged for a closer look

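The genotype difference (knockout minus wild type, log2) was averaged over the 3 bladder stages and over distal stomach, small and large intestine. By limma's test of the difference between these averages, 17 members (13.9%) were called, near the 12.6% of all genes. The gut tissues were all E18, so organ and stage cannot be told apart in this contrast. Values follow for the 12 members that the rule for named genes covers. The contrast was chosen after seeing the data, and the wild-type arrays had entered the choice of members. Bladder exceeded gut by 1.62 for Lrrc26 (adjusted p = 0.0077), 1.25 for Capn5 (adjusted p = 1.7e-04), 1.25 for Mlph (adjusted p = 0.0044), 1.22 for Calcb (adjusted p = 0.023), 1.02 for Fgf14 (adjusted p = 0.0053), 0.79 for Tmie (adjusted p = 0.038), 0.71 for Gabrp (adjusted p = 0.049) and 0.62 for Zbtb7c (adjusted p = 0.012). Bladder lay under gut for Hectd2 (-0.64, adjusted p = 0.013), Aox3 (-0.81, adjusted p = 0.0023), Adam28 (-1.37, adjusted p = 3.6e-04) and Upk3bl (-2.51, adjusted p = 5.4e-04). Groups of 2 arrays were too small for a test of single outlying arrays. No explanation was weighed.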

How the results depend on the processing

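The number of members was 317 at an excess of 0.5, 44 at an excess of 2, 75 with the lowest knockout array set against the highest single wild-type array and, chosen after seeing the data, 191 without the wild-type bladder groups. Leaving out 1 proximal stomach array gave 111 to 151. Members called in knockout bladder E18 against E15 went from 36 to 2 with the actin ratio as covariate, E19 against E18 from 49 to 30 and bladder against gut from 70 to 46 with a filter at the 75th percentile, which tests fewer members. Knockout against wild-type bladder E15 gave 0 with the actin covariate and 18 with members chosen without the bladder wild-type groups, and E19 then gave 33. The causes were not tested. Shares of all genes in these and the following refits are not given here. No change in a count is therefore read as particular to the members.

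Leaving out each array gave 24 to 31 calls (E18 against E15), 36 to 40 (E19 against E18), 53 to 69 (bladder against gut), 29 to 42 (distal stomach against intestine), and for knockout against wild type 1 to 10 (bladder E15), 2 to 9 (E18), 13 to 21 (E19), 0 to 2 (distal stomach), 0 to 0 (small intestine) and 0 to 3 (large intestine). Of named genes' calls across these settings, 1840 held, 241 were lost and 2 reversed. Fos in bladder E18 against E15 was -0.0124 with the actin covariate (adjusted p = 0.996), and Fgf14 in distal stomach against intestine was 1.47 when its probe sets were averaged (adjusted p = 2.1e-04). The excess of the 122 members moved by more than 1 SD in 46 cases, 31 of them with averaged probe sets and 12 with centring, and stayed within it in 683. It reversed in 3: Fgf14 with averaged probe sets (-0.3913), and Krt6a (-0.0102 to 2.9381) and Ltf (-0.3708 to 4.2946) over the leaving out of 1 wild-type proximal stomach array. All 122 stayed within 1 SD when either knockout proximal stomach array was left out. Dropping 1 of 2 arrays moves a mean by less than their SD, so that outcome was fixed. Leaving out a wild-type proximal stomach array could hardly move the 94 members whose highest wild-type group was another tissue. No support is read from these cases. A filter without the knockout proximal stomach arrays, added after seeing the data, kept 82 members and each of their counts of calls within a factor of 1.5.

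Replicate numbers gave no clear pairing of the samples. Deviations of same-numbered knockout and wild-type arrays correlated at -0.13 to 0.28, with 0.25 in proximal stomach. Over all 91 pairs of groups the correlations ran from -0.26 to 0.35, with a median of 0.02. With the replicate number as a block, calls were 36, 49, 71 and 40 among knockout groups, 11, 9 and 17 in bladder and 0 in each gut tissue. With 2 arrays a group, small differences may have been missed.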
